A study of Homo sapiens with 31 samples.

Results

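The genes that encode the CTBP corepressor complex were examined as binding targets of EVI1 and of CTBP2 itself. CTBP1, CTBP2, RCOR1, KDM1A, HDAC1, HDAC2, EHMT1, WIZ, ZEB1 and ZEB2 were taken, 10 of the 20163 protein-coding genes of GENCODE release 44 mapped to hg19. They were chosen for what their proteins do, with earlier results of these data known, and the rule used no measured value. A peak belonged to a gene when it overlapped the gene body, or the 20 kb on either side of it, by at least 1 bp. All 10 genes had a peak in at least 10 of the 13 ChIP-seq peak lists, and 119 of the 130 pairs of a gene and a list held at least 1 peak. In single lists, between 27.9% and 87.8% of all protein-coding genes had a peak by the same rule. The 10 loci were between 70.0 and 291 kb long, and genes were not matched for locus length in these shares.

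The lists come from human leukemia cell lines that express EVI1, which the study uses to examine acute myeloid leukemia (AML). Each of the 13 is 1 library of a bulk cell population. MUTZ3 cells without a construct gave 1 EVI1 list, from chromatin crosslinked with disuccinimidyl glutarate (DSG) and formaldehyde, and 1 CTBP2 list, from a single crosslink. Untreated MOLM1 cells that carry a dox-inducible short hairpin against EVI1, described by the study as a derived clone, gave 1 CTBP2 list. MUTZ3 cells with a retrovirus for 4xPLASS gave 2 CTBP2 lists, whose labels give DSG while those of their inputs give a single crosslink. MUTZ3 cells with dox-inducible 4xPLDLS in the pCW vector gave 2 CTBP2 and 2 EVI1 lists without dox and 2 of each with dox, at 72 hours, and both targets share 1 input per treatment. 4xPLDLS is a peptide with repeats of the EVI1 motif that binds CTBP proteins, and in 4xPLASS that motif is mutated. No list from dox-treated cells without 4xPLDLS was analysed here, so an effect of dox and an effect of the peptide cannot be told apart. The lists hold no expression values, so the cell lines could not be checked against markers. They also hold no read counts, so depth is unknown and a fold enrichment was used only to rank a peak within its own list. Nothing says that replicates came from separate cultures, so spreads between them may be technical.

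CTBP1 and CTBP2 are paralogous corepressors that do not bind DNA by themselves. They are brought to chromatin by proteins with a short motif of the PxDLS type, such as EVI1, ZEB1 and ZEB2, and they carry enzymes that remove active marks or add repressive ones. KDM1A is a histone demethylase, RCOR1 is the scaffold that joins it to the histone deacetylases HDAC1 and HDAC2, and EHMT1 is a methyltransferase for lysine 9 of histone H3 that WIZ helps to hold in the complex. Peaks at these loci show where EVI1 and CTBP2 were called in and around the genes for their own partners. Several loci also hold the start of another gene, to which a peak may belong. These are SPON2 at CTBP1, TEX46 at KDM1A, MARCKSL1 and TSSK3 at HDAC1, ARRDC1 and CACNA1B at EHMT1, and AKAP8L and RASAL3 at WIZ.

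The number of peaks at the 10 loci varied with the size of the lists. In unmodified MUTZ3 cells there were 31 EVI1 peaks and 27 CTBP2 peaks at the 10 loci, in lists of 21505 and 16836 peaks. The MOLM1 CTBP2 list of 64569 peaks held 97 of them. The 4xPLASS lists differed most within a group, with 5 peaks in replicate 1 and 36 in replicate 2, from lists of 6688 and 31310 peaks. In inducible cells without dox, CTBP2 had 75 and 53 peaks and EVI1 had 64 and 83. In unmodified cells 9 of the 10 genes had an EVI1 peak, beside 59.9% of all protein-coding genes, and 9 had a CTBP2 peak, beside 49.4%. In MOLM1 cells all 10 had a CTBP2 peak, beside 82.1%, and in the 4xPLASS lists 4 and 9 did, beside 27.9% and 68.2%. In inducible cells CTBP2 had a peak at 10 and 10 of the genes without dox (84.2% and 83.2% of all genes) and at 9 and 9 with dox (68.7% and 64%). EVI1 had one at 10 of the 10 in each of the 4 inducible lists (83.4% and 87.8% without dox, 84.1% and 82.7% with dox). The loci took between 0.0748% and 0.160% of the peaks of a list. The median number of CTBP2 peaks per 10 kb of locus in untreated inducible cells was 0.454 and 0.271 over the 10 genes, beside 0.368 and 0.347 over all protein-coding genes. For EVI1 it was 0.414 and 0.432 beside 0.315 and 0.418.

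**Figure D1:**
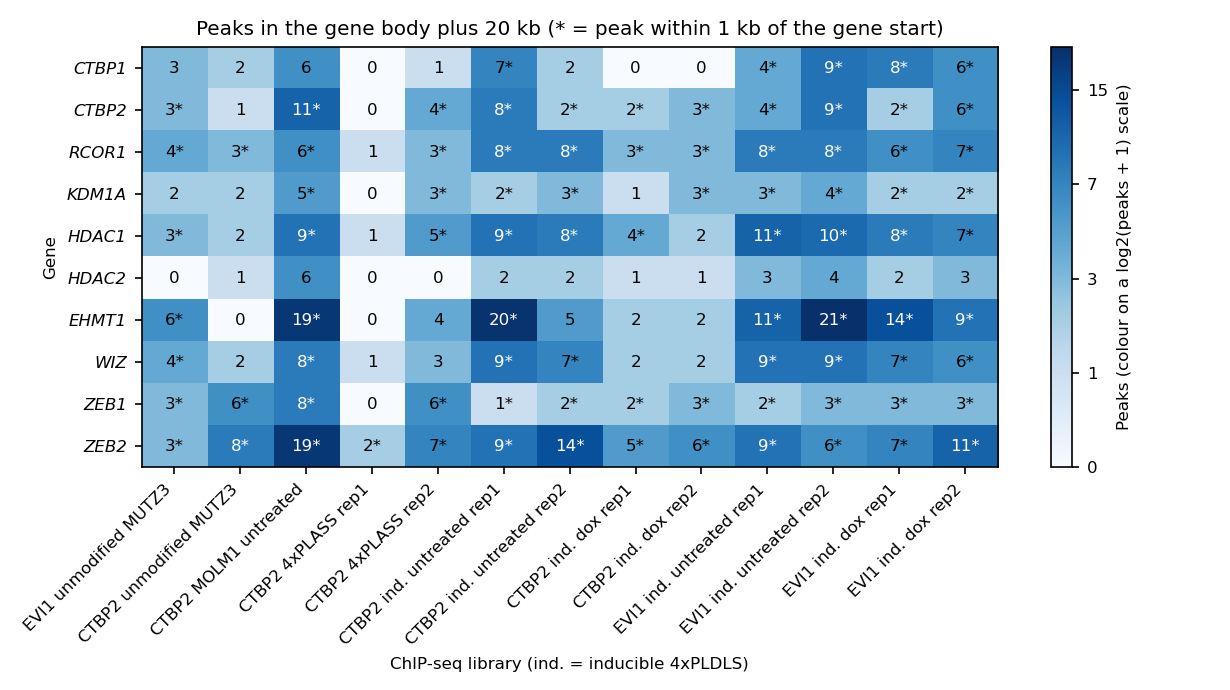
Number of peaks at each of the 10 genes (rows) in each of the 13 lists (columns), with the colour on a log2(peaks + 1) scale and an asterisk where a peak lies within 1 kb of the gene start. ZEB2 has an asterisk in all 13 lists and HDAC2 has none, and CTBP1 has no CTBP2 peak in either dox list.

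Peaks at promoters, taken as 1 kb on either side of the gene start, were found in 87 of the 130 pairs. In single lists, between 6.92% and 62.2% of all protein-coding genes had a promoter peak. ZEB2 had one in 13 lists, RCOR1 and ZEB1 in 12, CTBP2 in 11, HDAC1 in 10, KDM1A in 9, WIZ in 8, EHMT1 in 7, CTBP1 in 5 and HDAC2 in 0. The HDAC2 count depended on which gene start was used, as described below. In unmodified MUTZ3 cells, EVI1 had a promoter peak at 7 of the 10 genes, where 25.3% of all protein-coding genes had one, and CTBP2 at 3 (RCOR1, ZEB1 and ZEB2), where 17.4% had one. This EVI1 count rested partly on weak peaks. It was 4 for peaks with −log10 q of at least 5 and 3 for fold enrichment of at least 5. Within 2.5 kb of the gene start, or with the start of any transcript, it was 8. The shares of all genes under these settings were not counted. In MOLM1 cells CTBP2 had a promoter peak at 8 of the 10 genes beside 45.4% of all genes. The 4xPLASS lists had one at 1 and 6 genes, beside 6.92% and 33.1%. Single CTBP2 lists of inducible cells had one at 9 and 7 genes without dox (61.6% and 53.3% of all genes) and at 5 and 5 with dox (35% and 27.7%), and single EVI1 lists at 9 in each case (56.7% and 62.2% without dox, 58% and 54.8% with dox). In inducible cells, both untreated CTBP2 lists had one at 7 genes (52.4% of all genes), both untreated EVI1 lists at 9 (55.8%), both CTBP2 dox lists at 4 (24.1%) and both EVI1 dox lists at 9 (53.8%). The EVI1 count was thus equal without and with dox, and the CTBP2 count was lower with dox.

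The gene for CTBP2 lies on the minus strand at chr10:126672886-126849739 (ENSG00000175029). EVI1 had a peak at its promoter in all 5 EVI1 lists, with a summit at −4 bp from the gene start in unmodified cells and between −32 and −19 bp in the 4 inducible lists. This EVI1 peak had a fold enrichment of 11.6 and rank 2241 of 21505 in unmodified cells. In inducible cells it ranked 6279 and 3997 without dox and 1648 and 2720 with dox. As a share of the list these were 12.2% and 5.53% without dox and 3.06% and 5.71% with dox, so the groups overlapped, and the peak lay within the top 12.2% of every EVI1 list. CTBP2 was called at its own promoter in 6 of its 8 lists. It was strongest in untreated replicate 1, at chr10:126847197-126850668, with a fold enrichment of 20.2 and rank 2188 of 62232. Untreated replicate 2 had a fold enrichment of 7.27 and rank 16537 of 56526, and with dox the promoter peaks ranked 3673 of 24588 and 11188 of 23878. As a share of the list these were 3.52% and 29.3% without dox and 14.9% and 46.9% with dox, so the groups overlapped. The 2 lists without a CTBP2 peak there were the single-crosslink list of unmodified cells, whose only peak at the locus lay at +2340 bp, and 4xPLASS replicate 1, which had no peak at the locus. The reference sequence (GRCh37, plus strand, chr10:126850028-126850128) around the CTBP2 summit at −339 bp is shown because it is where the corepressor was strongest on its own gene. It is 77.2% G or C with 11 CG pairs, and the capitals mark AGGAAG, one form of the ETS core, read on the opposite strand:
CTBP2 promoter: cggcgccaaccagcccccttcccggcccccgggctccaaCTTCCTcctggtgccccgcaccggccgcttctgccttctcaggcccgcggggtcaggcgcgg

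CTBP1, on the minus strand at chr4:1205233-1244121 (ENSG00000159692), had weaker peaks. The strongest CTBP2 peak at its locus in untreated replicate 1 lay outside the gene at chr4:1200478-1200919, 2032 bp into the neighbouring gene SPON2, and ranked 14272. Untreated replicate 2 had no peak there. Peaks of CTBP2 at the locus numbered 7 and 2 without dox and 0 and 0 with dox, and peaks of EVI1 numbered 4 and 9 without dox and 8 and 6 with dox. Both CTBP2 sites called in both untreated lists were without a peak in the dox lists, whereas all 4 such EVI1 sites had one in both. At the promoter, CTBP2 was called in untreated replicate 1 only, with a fold enrichment of 4.77, and EVI1 in all 4 inducible lists, with fold enrichments of 3.45 and 3.92 without dox and 6.38 and 5.36 with dox. These are low values in both cases, as the EVI1 peak ranked in the weakest part of the untreated lists (93.7% and 85.1% of the way down) and near the middle with dox (42.8% and 55.9%).

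The gene for the scaffold RCOR1 lies on the plus strand at chr14:103058986-103196898 (ENSG00000089902). It had a promoter peak in 12 lists, all but 4xPLASS replicate 1, and the CTBP2 peak of untreated replicate 1 at chr14:103057705-103060100 had its summit at −559 bp. CTBP2 and EVI1 moved in opposite directions in rank at this promoter. The CTBP2 peak ranked 6230 and 9437 without dox (the top 10.0% and 16.7% of the list) and 11208 and 12225 with dox (45.6% and 51.2%). The EVI1 peak ranked 14536 and 5630 without dox (28.3% and 7.80%) and 2304 and 2448 with dox (4.28% and 5.14%). For neither target did the groups overlap. Of all sites kept in both dox lists, 23.8% of the CTBP2 sites ranked lower in both dox lists than in both untreated lists and 16% of the EVI1 sites ranked higher, both by number and by share of the list. The summit window (chr14:103058377-103058477) is shown for this contrast and holds 11 CG pairs and none of the motifs searched:
RCOR1 promoter: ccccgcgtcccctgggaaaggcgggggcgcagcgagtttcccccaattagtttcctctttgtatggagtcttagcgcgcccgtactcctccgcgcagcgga

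KDM1A lies on the plus strand at chr1:23345936-23410182 (ENSG00000004487). Its strongest CTBP2 peak in untreated replicate 1 was at the promoter, at chr1:23345647-23346239, with rank 8693. CTBP2 ranked 15913 in untreated replicate 2, had no peak in dox replicate 1 and ranked 7512 in dox replicate 2. EVI1 ranked 19219 and 19841 without dox and 6173 and 7644 with dox, so the EVI1 peak stood higher in both dox lists. Neither list of unmodified MUTZ3 cells had a peak at this promoter. Past the 3′ end of KDM1A is a second site, where the strongest MOLM1 peak of the locus was called at chr1:23426720-23427211. The gene start nearest to it is that of LUZP1, so it may belong to that gene rather than to KDM1A, which binding data cannot tell. This site was chosen after its values were seen. It ranked 244 of 64569 in MOLM1 cells with a fold enrichment of 35.0, the highest rank of a peak at any of the 10 loci in the 13 lists. In MUTZ3 cells CTBP2 was called there with rank 8575 of 16836 in unmodified cells, 36682 and 3900 in untreated inducible cells and 10829 and 2505 with dox. EVI1 ranked 5872 and 33010 without dox and 3869 and 1009 with dox, and thus higher in both dox lists. The MOLM1 summit window (chr1:23426938-23427038) has no CG pair and none of the motifs searched:
KDM1A 3′ flank: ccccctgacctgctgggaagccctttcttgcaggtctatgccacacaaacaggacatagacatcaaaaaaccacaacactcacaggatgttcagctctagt

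HDAC1, on the plus strand at chr1:32757684-32799236 (ENSG00000116478), had promoter peaks in 10 lists. They stood between 30.6% (EVI1 dox replicate 1) and 82.5% (EVI1 in unmodified cells) of the way down their lists. Its strongest site lay downstream at chr1:32814610-32815352, with the summit at −2270 bp from the start of TSSK3, the nearest gene start. At this site CTBP2 had fold enrichments of 23.3 and 20.3 without dox (ranks 1345 and 1058) and 6.83 and 7.63 with dox (ranks 4406 and 4493). EVI1 had fold enrichments of 25.3 and 39.8 without dox (ranks 1086 and 798) and 19.4 and 16.3 with dox (ranks 2523 and 2799). Both targets kept a peak in both dox lists and both ranked lower in both. In MOLM1 cells the CTBP2 peak ranked 1418 of 64569. The summit window (chr1:32814802-32814902) was 61.4% G or C and held none of the motifs searched:
HDAC1 downstream: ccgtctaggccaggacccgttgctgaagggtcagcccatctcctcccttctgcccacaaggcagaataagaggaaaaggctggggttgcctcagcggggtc

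HDAC2, the paralogue of HDAC1, lies on the minus strand at chr6:114254192-114332472 (ENSG00000196591). It had no peak within 1 kb of the gene start used here in any of the 13 lists, and none at the locus in the EVI1 list of unmodified cells. This depended on the start chosen. With the start of any transcript, all 10 genes had a promoter peak in the MOLM1 list, CTBP2 untreated replicate 1 and the 4 inducible EVI1 lists. In CTBP2 untreated replicate 1 the HDAC2 locus held 2 peaks, 1 of them beyond the 3′ end. The other lay in the gene body by the start used here, and thus within 1 kb of the start of another HDAC2 transcript. Its CTBP2 site, at chr6:114291325-114292839 and +40390 bp from the start used here, was kept in both dox lists. The strongest CTBP2 site of HDAC2 was distal, at chr6:114242039-114242345, beyond the 3′ end and +90245 bp from the gene start. CTBP2 ranked 8974 and 5736 there without dox, with fold enrichments of 11.95 and 11.50, and had no peak in either dox list. EVI1 had a peak in all 4 inducible lists, with fold enrichments of 21.9 and 15.2 (ranks 1614 and 7594) without dox and 11.4 and 6.15 (ranks 8212 and 21075) with dox. With dox the site thus had no CTBP2 call, and EVI1 was still called, at a lower rank in both lists. Its window (chr6:114242177-114242277) is shown because CTBP2 calls ended there while EVI1 calls did not. The capitals mark AGGAAG on the opposite strand and GATGAG, the core of a sequence that the C-terminal zinc fingers of EVI1 recognise:
HDAC2 distal: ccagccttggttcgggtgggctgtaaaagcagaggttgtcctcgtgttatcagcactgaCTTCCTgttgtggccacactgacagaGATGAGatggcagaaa

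EHMT1, on the plus strand at chr9:140513444-140764468 (ENSG00000181090), is the longest of the 10 genes. CTBP2 peaks numbered 20 and 5 without dox and 2 and 2 with dox, and EVI1 peaks numbered 11 and 21 without dox and 14 and 9 with dox. The spread between the untreated replicates was thus wide for both targets. CTBP2 had no peak at the locus in unmodified MUTZ3 cells, where EVI1 had 6. The strongest CTBP2 peak of untreated replicate 1 was intronic, at chr9:140610572-140610966, and was not found for CTBP2 in untreated replicate 2 or with dox. CTBP2 was also called there in MOLM1 cells (rank 41966) and in 4xPLASS replicate 2 (rank 30440), and EVI1 in all 4 inducible lists (ranks 15055 and 5230 without dox, 31636 and 31995 with dox). Its window (chr9:140610696-140610796) consists of a 29-bp unit in tandem, and reads in such a repeat can be placed at more than 1 copy, so this peak is uncertain. The site that was called by CTBP2 in all 4 inducible lists was another intronic one, at chr9:140583311-140583532 in dox replicate 1, and it was chosen after its values were seen. CTBP2 fold enrichment was 6.59 and 6.44 without dox and 6.57 and 7.15 with dox. The CTBP2 rank was 27092 and 21027 without dox and 4998 and 5433 with dox, and EVI1 ranked 9450 and 10235 without dox and 3708 and 1918 with dox. Both targets stood higher in both dox lists. Both windows are printed with AGGAAG in capitals on either strand, the second at chr9:140583348-140583448:
EHMT1 repeat: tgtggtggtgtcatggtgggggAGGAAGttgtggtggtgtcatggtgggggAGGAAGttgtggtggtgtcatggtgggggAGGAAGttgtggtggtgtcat
EHMT1 intron: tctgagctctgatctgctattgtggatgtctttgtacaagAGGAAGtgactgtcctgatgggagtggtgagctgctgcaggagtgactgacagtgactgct

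WIZ, on the minus strand at chr19:15530789-15560767 (ENSG00000011451), had a single outstanding site. It lay upstream of WIZ at chr19:15574239-15575647 and +609 bp from the start of RASAL3, so it may belong to that gene rather than to WIZ, which binding data cannot tell. It was called in all 13 lists. In unmodified cells it ranked 4329 of 21505 for EVI1 and 3122 of 16836 for CTBP2, and in MOLM1 cells 456 of 64569 for CTBP2. The 4xPLASS lists had it at ranks 430 and 1010. In inducible cells CTBP2 fold enrichment was 26.1 and 16.9 without dox (ranks 907 and 1934) and 8.02 and 7.41 with dox (ranks 2685 and 4880). EVI1 fold enrichment was 28.0 and 43.4 without dox (ranks 816 and 610) and 23.9 and 22.1 with dox (ranks 1506 and 1317). Both proteins remained called, and both ranked lower in both dox lists. At the WIZ promoter itself CTBP2 had a peak in both untreated lists and in neither dox list, while EVI1 had one in all 4 lists. The RASAL3 window (chr19:15574696-15574796) holds AGGAAG at 2 places on the opposite strand:
WIZ upstream: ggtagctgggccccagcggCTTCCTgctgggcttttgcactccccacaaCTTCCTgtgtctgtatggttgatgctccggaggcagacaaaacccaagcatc

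ZEB1 and ZEB2 encode zinc-finger repressors that bind CTBP proteins through the same kind of motif as EVI1. ZEB1 lies on the plus strand at chr10:31607424-31818742 (ENSG00000148516), and its promoter peak of untreated replicate 1 covered chr10:31607071-31610107 with the summit in an exon at +461 bp. CTBP2 ranked 1078 and 2781 there without dox, with fold enrichments of 24.9 and 15.1. With dox its promoter peaks ranked 11174 and 21765, with fold enrichments of 5.02 and 3.58. EVI1 ranked 4003 and 3418 without dox and 4095 and 4397 with dox, with fold enrichments of 15.3 and 22.5 without and 15.9 and 13.5 with dox. Of the named sites called in all 4 lists, this one had the widest shift in CTBP2 position as a share of the list, though not by rank number. It moved from the top 1.73% and 4.92% of the list to 45.4% and 91.2%, while EVI1 stayed between 4.73% and 9.24%. In dox replicate 2 a stronger CTBP2 peak of the same site, with its summit at +1889 bp and outside the promoter, ranked 18475 (77.4%). The window (chr10:31607835-31607935) carries CACCTG in capitals, the opposite strand of CAGGTG, the E-box core that ZEB proteins recognise:
ZEB1 promoter: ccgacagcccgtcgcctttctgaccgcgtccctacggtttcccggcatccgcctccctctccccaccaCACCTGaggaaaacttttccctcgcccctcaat

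ZEB2 lies on the minus strand at chr2:145121931-145278624 (ENSG00000169554). It was the only gene of the 10 with a promoter peak in all 13 lists, and CTBP2 moved there in the other direction in rank. The promoter peak had CTBP2 fold enrichments of 12.97 and 6.29 without dox and 11.1 and 9.38 with dox, so these overlapped. It ranked 7413 of 62232 and 22162 of 56526 without dox and 829 of 24588 and 2493 of 23878 with dox, or the top 11.9% and 39.2% against 3.37% and 10.4%. EVI1 ranked 4986 and 6656 without dox and 9554 and 4895 with dox, and these groups overlapped. A CTBP2 site that ranked higher in both dox lists was found at 6.88% of all CTBP2 sites kept in both, and at 2 of the 12 kept sites of the 10 loci, the ZEB2 promoter and the EHMT1 intron. Upstream, at chr2:145281322-145282450, lay the strongest ZEB2 site of untreated replicate 1, with rank 5844. There CTBP2 ranked 20409 in untreated replicate 2 and 20986 and 16497 with dox, so the groups overlapped by rank number. As a share of the shorter dox lists the peak stood at 85.4% and 69.1%, against 9.39% and 36.1% without dox. An intronic site near the 3′ end, at chr2:145140425-145140856 in dox replicate 2, was chosen after its values were seen. CTBP2 was absent there in untreated replicate 1, ranked 8183 in untreated replicate 2, and ranked 1420 and 958 with dox. EVI1 was called in untreated replicate 1 and dox replicate 2 only, at ranks 20203 and 16846. With dox the CTBP2 peaks lay in the top 5.78% and 4.01% of their lists, and the 1 EVI1 peak in the top 35.4% of its list. Its window (chr2:145140626-145140726) is shown for that reason, with AGGAAG in capitals:
ZEB2 intron: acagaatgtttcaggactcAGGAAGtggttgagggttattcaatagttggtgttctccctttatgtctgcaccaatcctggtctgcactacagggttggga

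**Figure D2:**
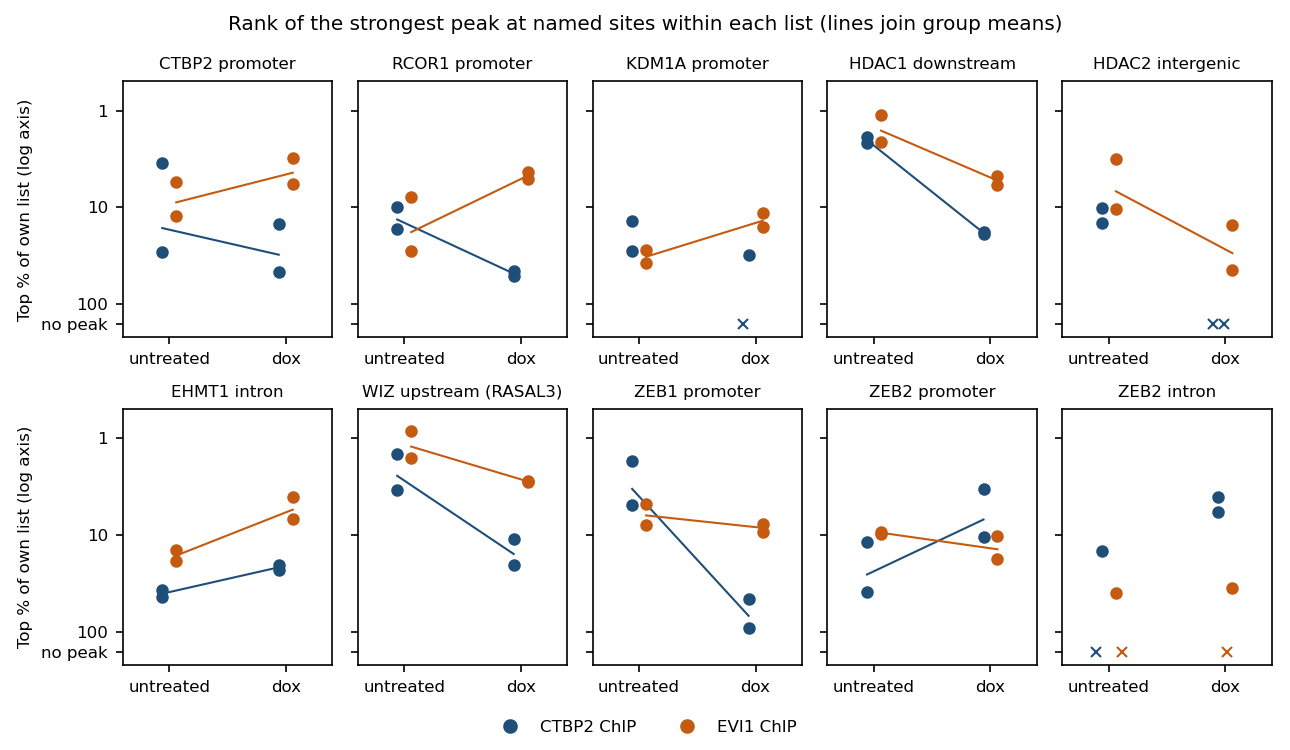
Position of the strongest peak within its own list (top percent, log axis, strongest at the top) at 10 named sites in untreated and dox-treated inducible cells, for 2 CTBP2 and 2 EVI1 libraries per treatment (points), with lines joining group means and crosses where no peak was called. CTBP2 drops at the ZEB1 promoter from 1.73% and 4.92% to 45.4% and 91.2%, and rises at the ZEB2 promoter from 11.9% and 39.2% to 3.37% and 10.4%.

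Motifs were searched on both strands in the 50 bp on either side of each summit of the CTBP2 list of untreated replicate 1. CAGGTG was present in 22.7% of the 75 windows at the 10 loci and in 18.5% of all 61338 windows, GATGAG in 6.67% and 6.03%, AGATAA in 1.33% and 2.35%, and CGGAAG in 1.33% and 6.80%. AGGAAG, which was added after the windows had been read, was present in 22.7% and 22.98%. The 19 distinct windows at the named sites, from which this motif was picked, held it in 9 cases, so that count supports nothing. A match describes the sequence and does not show which factor is bound.

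CTBP2 peaks at the 10 loci were fewer with dox. They numbered 75 and 53 in the untreated lists, a mean of 64.0 ± 15.6 (SD, n = 2), and 22 and 25 in the dox lists, a mean of 23.5 ± 2.12 (SD, n = 2). The log2 ratio was −1.45, and p was 0.33 in a two-sided exact permutation test over the 2 and 2 libraries, the smallest p such a design allows. Both dox lists had fewer peaks than both untreated lists at 7 of the 10 genes (CTBP1, RCOR1, HDAC1, HDAC2, EHMT1, WIZ and ZEB2), and 62.3% of all genes with a CTBP2 peak in these lists did so. At CTBP2, KDM1A and ZEB1 the groups overlapped, with 1 and 2 peaks without dox and 2 and 3 with dox at ZEB1. More peaks in both dox lists were found at 0 of the 10 genes and at 0.359% of all genes. The direction of the count depended on the length of the lists. When each of the 4 lists was reduced to its strongest 23878 peaks, the loci held 16 and 22 peaks without dox and 22 and 25 with dox, a log2 ratio of 0.31 (exact permutation p = 0.667).

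EVI1 peaks at the same loci numbered 64 and 83 without dox (73.5 ± 13.4, SD, n = 2) and 59 and 60 with dox (59.5 ± 0.707, SD, n = 2). The log2 ratio was −0.30, with p = 0.33 in the exact two-sided permutation test. Fewer peaks in both dox lists were seen at RCOR1, KDM1A, HDAC1 and WIZ, 4 of the 10 genes, beside 14.1% of all genes, and more peaks in both at 0 of the 10, beside 3.78%. With each list reduced to its strongest 47599 peaks, the loci held 59 and 54 EVI1 peaks without dox and 52 and 60 with dox, a log2 ratio of −0.01 (exact permutation p = 1), so the groups overlapped. With the lists as deposited, the falls at the 4 genes were small, as from 8 and 8 to 6 and 7 at RCOR1 and from 11 and 10 to 8 and 7 at HDAC1. Without untreated replicate 2, the list with the most peaks, the log2 ratio was −0.11, and the difference between the CTBP2 and EVI1 ratios was not tested.

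**Figure D3:**
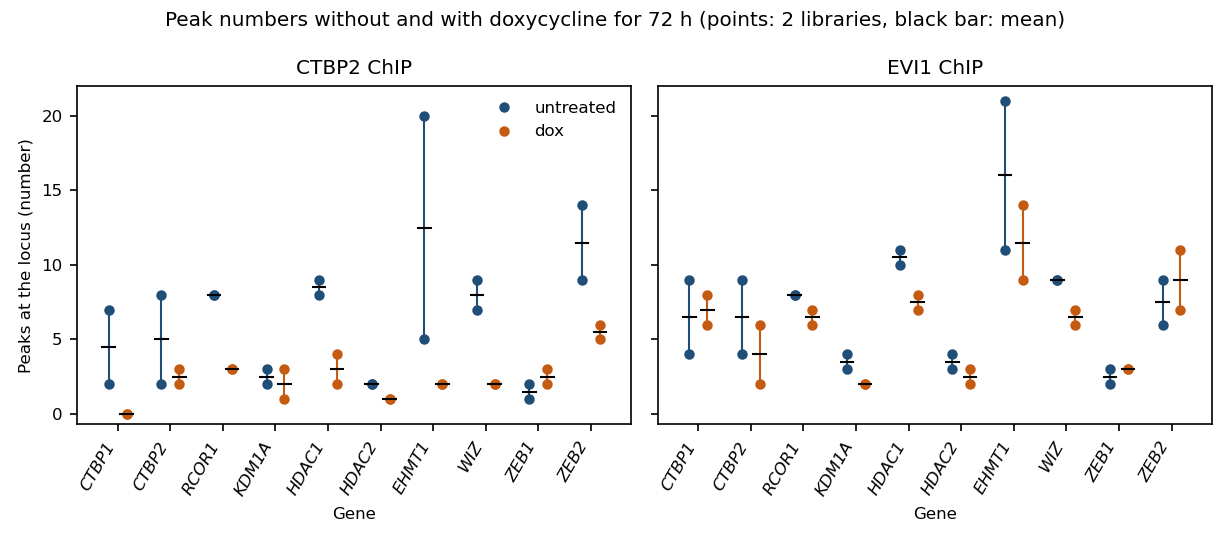
Number of CTBP2 peaks (left) and EVI1 peaks (right) at each gene in untreated and dox-treated inducible cells, with 1 point per library, 2 libraries per group and a black bar at the mean. At RCOR1 the CTBP2 peaks fall from 8 and 8 to 3 and 3, and at WIZ from 9 and 7 to 2 and 2, while EHMT1 has 20 and 5 in the untreated lists.

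Sites called in both untreated lists were followed into the dox lists. Of 31 CTBP2 sites at the 10 loci, 12 had a peak in both dox lists, 5 in 1 and 14 in neither. Both dox lists held 38.7% of them (95% Wilson interval 23.7 to 56.2, counting error only), beside 38.4% of the 37227 CTBP2 sites of the genome, and 45.2% had a peak in neither beside 41%. The mean over the dox libraries was 46.8% ± 2.28 (SD, n = 2), beside 48.7% ± 3.03 for the genome, so CTBP2 sites at the genes for the complex were kept about as often as elsewhere. For EVI1, 33 of 45 sites had a peak in both dox lists, 7 in 1 and 5 in neither. That is 73.3% (59.0 to 84.0) in both, beside 78.1% of the 40449 EVI1 sites of the genome, and 11.1% in neither, beside 9.01%. The mean over the dox libraries was 81.1% ± 7.86 (SD, n = 2) beside 84.5% ± 5.202. The difference between the targets in these shares was not tested, since sites are not replicates.

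**Figure D4:**
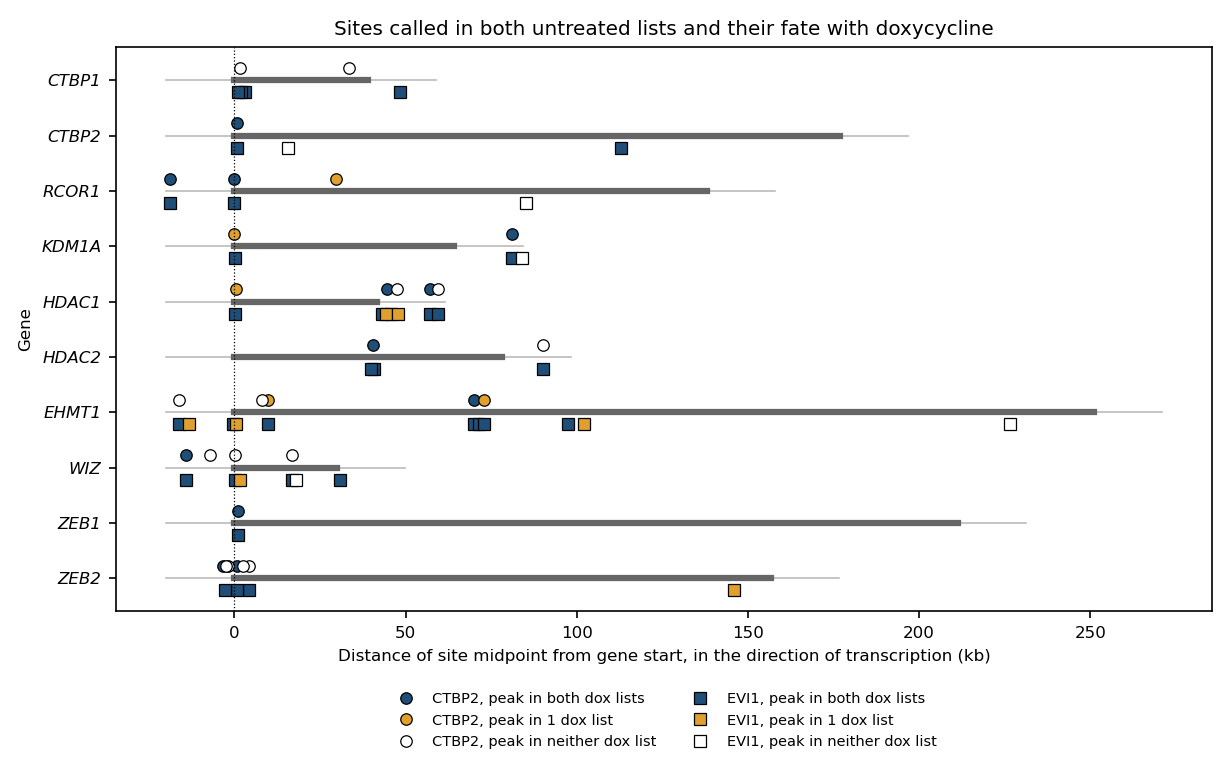
Sites called in both untreated lists at each gene, placed by the distance of their midpoint from the gene start in kb (thick line: gene body, thin line: 20 kb on either side), with CTBP2 as circles above the line and EVI1 as squares below. Blue marks a peak in both dox lists, orange in 1 and white in neither, and 14 of the 31 CTBP2 sites are white beside 5 of the 45 EVI1 sites.

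Strong CTBP2 sites were mostly kept. All CTBP2 sites were ordered by their fold enrichment in untreated replicate 1 and split into 5 groups of the same number. In the strongest group, 8 of the 9 sites at the 10 loci had a peak in both dox lists. The exception lay downstream of HDAC1 at chr1:32816662-32817484, with fold enrichments of 13.9 and 7.01 without dox and no peak with dox. In the weakest group 1 of 8 sites had a peak in both dox lists, 2 in 1 and 5 in neither. The mean share kept over the dox libraries was 88.9% and 25.0% in these groups, beside 87.6% and 23.9% for all CTBP2 sites in them. EVI1 kept 8 of 8 sites of the strongest group and 6 of 12 of the weakest in both dox lists, and its mean shares kept were 100% and 66.7%, beside 99.7% and 68.6% for all EVI1 sites in these groups.

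Of the 14 CTBP2 sites without a peak in either dox list, 8 had an EVI1 peak in both untreated EVI1 lists, beside 68.3% of the 15273 such sites of the genome. EVI1 was called in dox replicate 1 at 10 of them and in dox replicate 2 at 8, beside 67.6% and 57.5% of the genome. It was called in both dox lists at 7 and in neither at 3, beside 52.3% and 27.2%. The 7 sites with EVI1 in both dox lists included the distal HDAC2 site, the WIZ promoter and the CTBP1 promoter region. An EVI1 site overlapped 26 of the 31 CTBP2 sites (83.9%, beside 82.5% of the genome), and a CTBP2 site overlapped 28 of the 45 EVI1 sites (62.2%, beside 75.9%). CTBP2 sites that overlapped an EVI1 site were kept in both dox lists in 12 of 26 cases and those that did not in 0 of 5, beside 44.2% and 11.1% in the genome. EVI1 sites that overlapped a CTBP2 site were kept in 26 of 28 cases and those that did not in 7 of 17, beside 87.2% and 49.3%.

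Followed in the other direction, CTBP2 sites called in both dox lists had mostly been called without dox. There were 16 such sites at the 10 loci, of which 13 had a peak in both untreated lists (81.2%, beside 90.9% of all such CTBP2 sites), 3 in 1 and 0 in neither. Of 42 EVI1 sites called in both dox lists, 32 had a peak in both untreated lists (76.2%, beside 84.2%), 7 in 1 and 3 in neither. Of the 12 CTBP2 sites kept in both dox lists, 2 ranked higher in both (6.88% of all kept CTBP2 sites), 4 lower in both (23.8%) and 6 overlapped. Of the 33 kept EVI1 sites, 8 ranked higher (16%), 9 lower (26.7% of all kept EVI1 sites) and 16 overlapped.

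In unmodified MUTZ3 cells, 14 of the 31 EVI1 peaks at the loci overlapped a CTBP2 peak, or 45.2% (95% Wilson interval 29.2 to 62.2), beside 43% of all EVI1 peaks. All 3 EVI1 peaks at ZEB1, all 3 at ZEB2 and both at KDM1A were shared, and none of the 6 at EHMT1 or the 3 at CTBP1 was. At EHMT1 the CTBP2 list held no peak, so no overlap was possible there. Of the 27 CTBP2 peaks, 13 overlapped an EVI1 peak (48.1%, 30.7 to 66.0), beside 54.5% of the list. A MOLM1 CTBP2 peak overlapped 20 of the 27 (74.1%, 55.3 to 86.8), beside 70.2% of the list. Conversely, 20 of the 97 MOLM1 peaks there overlapped a peak of unmodified MUTZ3 cells (20.6%, 13.8 to 29.7), beside 18.7%. A peak in at least 1 untreated inducible MUTZ3 list overlapped 58 of the 97 (59.8%, beside 60.9%), and 16 of the 27 CTBP2 peaks of unmodified cells were called in both (59.3%, beside 76.1%). At EHMT1 and CTBP2, 0 of 19 and 0 of 11 MOLM1 peaks there overlapped one in unmodified MUTZ3 cells. Those MUTZ3 cells had 0 CTBP2 peaks at EHMT1 and 1 at CTBP2, so there was little or nothing to overlap. Of those 19 and 11 peaks, 11 and 7 overlapped a peak in at least 1 untreated inducible MUTZ3 list. MOLM1 and unmodified MUTZ3 cells each gave 1 CTBP2 library, and the MOLM1 label gives DSG where the study's sample table gives a single crosslink, so the cell line and the preparation cannot be told apart.

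Other genes of the same machinery were counted from 4 lists. They are CoREST-associated genes (10 genes), writers and readers of histone H3 lysine 9 methylation (7), subunits of the NuRD deacetylase complex (11) and factors that recruit CTBP proteins (18). Both untreated CTBP2 lists had a promoter peak at 8 of 10, 5 of 7, 6 of 11 and 14 of 18 of these genes. The share of all protein-coding genes was 52.4%. Both CTBP2 dox lists had a promoter peak at 2, 2, 3 and 10, beside 24.1% of all genes. Both EVI1 lists had one at 8, 6, 11 and 13 without dox, beside 55.8% of all genes. With dox both had one at 9, 6, 11 and 13, beside 53.8%. CTBP2 sites were kept in both dox lists in 21 of 69 cases (30.4%), 8 of 23 (34.8%), 20 of 65 (30.8%) and 45 of 96 (46.9%), around the 38.4% of the genome. EVI1 sites were kept in 64 of 87 (73.6%), 21 of 25 (84.0%), 60 of 67 (89.6%) and 80 of 103 cases (77.7%), around 78.1%. The genes with the strongest CTBP2 peak of each list in untreated replicate 1 were GSE1 (rank 279), CBX5 (1272), MBD2 (592) and ZNF366 (752).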

How the data were processed

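ChIP-seq with antibodies against EVI1 or CTBP2 was analysed from 13 peak lists, 1 per library, of the 31 samples of the series. The authors aligned reads to hg19 with Bowtie 1.1.1 and called peaks per library with MACS2, run with default parameters and a matched input (version 2.1.2 in the submitters' processing notes). The deposited lists give for each peak a fold enrichment over background (a ratio), a −log10 p and a −log10 q, and the summit. No read counts are in them, so depth is unknown and the study's read-based comparison of conditions was not repeated.

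Peaks were assigned to GENCODE release 44 genes on hg19 and ranked by fold enrichment within each list with Python 3.11.15, pandas 2.3.3, numpy 2.4.6 and scipy 1.17.1, and the overlap scripts were tested on simulated data. A site was the merged interval of overlapping peaks called in both untreated lists, and overlap meant at least 1 bp. Groups were taken from the sample labels. Peak numbers were compared by an exact permutation test over 2 against 2 libraries, which cannot go below p = 0.33. Shares carry 95% Wilson intervals that cover counting error only, and sites are not replicates. The members and lists were chosen with earlier results of these data known. Named sites were the strongest CTBP2 peak of each gene in untreated replicate 1 and the promoter, and the added sites and AGGAAG were chosen after values had been seen. Alternatives were list size, thresholds, flanks, promoter width, replicate pairing and leaving out each replicate. Windows that overlap a UTR are not printed.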

Additional observations from a re-analysis of the deposited data

Results flagged for a closer look

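At the RCOR1 promoter (chr14:103057705-103060100) the position within the list moved in opposite directions for CTBP2 and EVI1 in the dox libraries. The mean position of the CTBP2 peak in its list moved from 13.4% to 48.4%, a dox minus untreated difference of 35.0 percentage points towards weaker peaks. The mean position of the EVI1 peak moved from 18.0% to 4.71%, a difference of −13.3 percentage points towards stronger peaks. The CTBP2 dox lists were shorter, which raises the percentage for a given rank, and the ranks were 6230 and 9437 without dox and 11208 and 12225 with dox. The site was picked out because all dox libraries of one target moved against all dox libraries of the other, and the difference was not tested. How often such paired moves occur over the genome was not counted. Groups of 1 or 2 libraries are too small to single out a deviating library.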

How the results depend on the processing

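The fall in CTBP2 peaks at the 10 loci reversed when the 4 lists were cut to equal size, to a log2 ratio of 0.31, and the EVI1 ratio was then −0.01. Leaving out a replicate gave log2 ratios between −1.67 and −1.17 for CTBP2 and between −0.48 and −0.11 for EVI1. The share of CTBP2 sites kept, 46.8% as reported, was 57.5% for peaks with −log10 q of at least 5, 50.0% for fold enrichment of at least 5, 52.1% with 50 kb flanks, 79.2% with lists of equal size and 21.1% for sites of either untreated list. Leaving out a replicate gave 20.0% (without untreated replicate 2) to 48.4% (without dox replicate 1), and 36.8% without untreated replicate 1. The share of EVI1 sites kept, 81.1% as reported, was 72.4% for fold enrichment of at least 5 and 51.6% for sites of either untreated list, and ranged from 53.6% (without untreated replicate 1) to 86.7% when a replicate was left out.

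With the replicate number as a block, the log2 ratios were −1.43 for CTBP2 and −0.29 for EVI1, and the shares kept within a pair were 28.2% and 61.6%. The deviations of same-numbered libraries correlated at 0.134 for CTBP2 (17532 genes) and −0.197 for EVI1 (18130 genes), and nothing in the labels says that the number marks a shared culture. The crossed pairing, added after seeing the data, gave an EVI1 share of 63.9%. Depth is unknown, so its part in these values was not tested.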

Other observations

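In the EVI1 list of untreated replicate 1, AGGAAG was present in 23.4% of the 64 summit windows at the 10 loci and in 26.9% of all 50453 windows, and any of the 5 motifs searched in 37.5% and 48.2%. In the CTBP2 list of untreated replicate 1, any of them was present in 48.0% of the 75 windows and in 47.9% of all windows. AGGAAG was added after the windows had been read.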
